A study of Mus musculus with 46 samples.

Results

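Macrophages are the resident phagocytes of the cochlea. In these data they were the 4 cells, of 46 single cells sequenced, in which C1qb, a chain of the complement component C1q, reached at least 500 CPM (reads per 1000000 reads). C1qb chose the members, so its values are a description with no test: it stood at 3048, 3372, 4311 and 9634 CPM in cells 43, 44, 45 and 46, the order in which the values of the 4 cells are given throughout. The next cells lay at 148 CPM (cell 22) and 46.99 CPM (cell 42), and every further cell at 5.15 CPM or less. The study asked which cochlear cell types express Dio2, the gene of the type 2 deiodinase that makes active thyroid hormone, and picked fluorescent cells by hand from papain-dissociated cochleae at postnatal day 10. All 46 cells carry 1 label. The donors were C57BL/6 mice heterozygous for a tamoxifen-inducible Cre at Dio2 and carrying the Ai6 reporter, which turns a cell and its descendants green once Cre has acted. No animal is named for any cell, so the cells count as 1 sample, the contrast of 4 macrophages with 42 other cells has no replicate, and differences are described by size without a test. Green fluorescence marks past Cre activity and need not match Dio2 RNA at the time of picking; when tamoxifen was given is not stated in the labels. These describe every cell as expressing Dio2, yet Dio2 stood at 0.465, 0.194, 0.404 and 0.432 CPM in the 4 macrophages, at or below the level of 2 reads, against a median of 26.5 and up to 599.8 CPM in the other cells.

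Macrophages engulf dying cells, debris and microbes, break them down in acid lysosomes and show fragments of protein on MHC molecules. They depend on the receptor Csf1r and on the transcription factor PU.1, encoded by Spi1. They also steer other leukocytes with chemokines. Resident macrophages differ between tissues: brain microglia, perivascular and connective tissue macrophages and monocyte-derived cells are usually told apart by small sets of genes such as P2ry12, Mrc1, Lyve1, Ccr2 and the MHC class II genes.

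Promoters of leading genes are shown because the results turn on genes of the macrophage program and of the lysosome, for which short recognition sequences are known. Windows of 300 bases, from 250 before to 50 after a gene's start, were taken from RefSeq (GRCm38.p6) and searched on both strands for AGGAAGT, a sequence bound by PU.1, for TCACGTGA, the E-box of lysosome genes bound by TFEB and TFE3, and for TGANTCA, the AP-1 site. None of these 3 motifs contains another. A match is a description and not a binding site. The match is in capitals in each sequence, and reads as its reverse complement for the PU.1 motif. The windows lie at chr3:95526536-95526835 on the + strand (Ctss), chr4:136892865-136893164 on the - strand (C1qc), chr10:117282223-117282522 on the - strand (Lyz2), chr7:142387778-142388077 on the - strand (Ctsd) and chr2:164833523-164833822 on the + strand (Ctsa, the second of its 2 windows). Each starts at its gene's 5' flank and is written 5' to 3' on the strand of the gene.
Ctss: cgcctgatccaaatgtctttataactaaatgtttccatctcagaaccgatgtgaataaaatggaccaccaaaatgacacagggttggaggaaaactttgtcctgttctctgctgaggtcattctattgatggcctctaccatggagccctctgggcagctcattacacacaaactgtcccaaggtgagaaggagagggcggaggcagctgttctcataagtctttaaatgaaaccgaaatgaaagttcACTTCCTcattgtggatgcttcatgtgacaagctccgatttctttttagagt
C1qc: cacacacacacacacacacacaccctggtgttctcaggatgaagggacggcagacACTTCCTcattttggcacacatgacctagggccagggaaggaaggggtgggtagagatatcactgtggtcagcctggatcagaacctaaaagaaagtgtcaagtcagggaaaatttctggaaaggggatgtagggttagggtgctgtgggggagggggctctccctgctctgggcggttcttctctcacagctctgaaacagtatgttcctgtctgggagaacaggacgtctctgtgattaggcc
Lyz2: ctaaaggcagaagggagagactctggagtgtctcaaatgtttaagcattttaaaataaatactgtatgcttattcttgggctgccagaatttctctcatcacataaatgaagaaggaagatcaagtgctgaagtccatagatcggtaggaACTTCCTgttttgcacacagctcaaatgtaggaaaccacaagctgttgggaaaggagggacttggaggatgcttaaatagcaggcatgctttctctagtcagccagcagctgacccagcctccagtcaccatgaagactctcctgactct
Ctsd: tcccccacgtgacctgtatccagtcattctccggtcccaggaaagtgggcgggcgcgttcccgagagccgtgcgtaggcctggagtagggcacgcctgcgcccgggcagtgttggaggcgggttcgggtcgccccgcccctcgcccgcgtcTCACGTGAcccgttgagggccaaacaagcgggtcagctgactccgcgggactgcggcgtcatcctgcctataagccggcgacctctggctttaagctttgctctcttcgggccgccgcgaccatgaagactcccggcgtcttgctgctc
Ctsa: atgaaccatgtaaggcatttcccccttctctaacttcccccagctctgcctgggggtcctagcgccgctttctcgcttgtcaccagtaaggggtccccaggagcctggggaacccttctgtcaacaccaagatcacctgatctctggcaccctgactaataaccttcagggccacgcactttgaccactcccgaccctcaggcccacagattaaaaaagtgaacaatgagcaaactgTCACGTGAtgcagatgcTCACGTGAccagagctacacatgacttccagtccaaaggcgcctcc

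The PU.1 motif was in a window of 20 of the 79 genes with a window among the 111 (0.677% of 16384 tested) that stood higher in all 4 macrophages than in every other cell (25.3%), against 10.7% of all 27025 genes with a window and 10.3% of the 11820 genes tested that have one. Among the pan-leukocyte genes it was in 6 of 10. The lysosome E-box was in 8 of 63 lysosome genes (12.7%), against 1.12% of all genes and 2.06% of genes tested. In Ctss the PU.1 motif began 2 bases before the start and ran across it, and in Lyz2 it began 100 bases before the start. Ctsd held 1 lysosome E-box that began 99 bases before the start. The Ctsa window shown held 2, of which 1 began 13 bases before the start and the other after it. The AP-1 motif was in a window of 10 of the same 79 genes without overlap (12.7%), against 8.97% of all genes and 6.31% of genes tested, and of 0 of 14 immediate early genes. It was in 6 of 63 lysosome genes and 0 of 10 pan-leukocyte genes. A higher share among the genes without overlap was thus seen for both the PU.1 and the AP-1 motif, with the smaller gap for AP-1. The genes without overlap were picked from these same data, and the shares were not tested.

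The libraries of the macrophages were of ordinary depth. They held between 3910005 and 4788550 reads in the listed genes, within the 2522853 to 10350249 of all 46 cells, and 4714 to 5831 genes at 1 CPM or more, around the median of 4996.5 over all cells. Mitochondrial genes took 0.514% to 2.05% of the total. A floor of 3 reads corresponds to 0.581 to 0.698 CPM in these 4 libraries, so a gene listed at 0 there is limited by counting error to that level. Reads carry no molecular identifiers, and intervals and floors cover counting error only. Across genes, Pearson's r of log2(CPM + 1) between pairs of macrophages ran from 0.461 to 0.513, and between a macrophage and another cell from 0.263 to 0.411. Pairs of other cells ran from 0.322 to 0.613, so some were more alike than any pair of macrophages. This is a description in which genes are not independent.

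**Figure D1:**
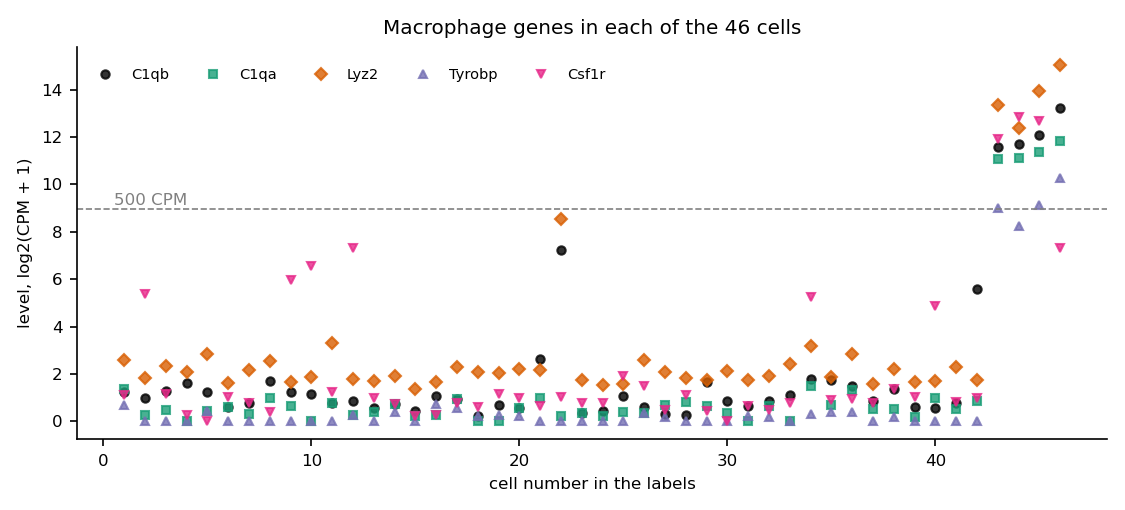
Level of 5 macrophage genes, log2(CPM + 1), in each of the 46 cells by the cell number in the labels; the dashed line is the threshold of 500 CPM that was applied to C1qb. Cells 43 to 46 stand apart for every gene except Csf1r, where cell 46 at 160 CPM lies at the level of cell 12, and cell 22 carries C1qb and Lyz2 at intermediate levels.

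The other macrophage markers were high in the same 4 cells. Lyz2, the lysozyme of macrophages, had 10530.1, 5361, 15579 and 33976 CPM, against a median of 2.89 and a highest value of 367 CPM in the other cells. C1qa and C1qc, the partners of C1qb, had 2176, 2200.3, 2681 and 3626 CPM and 3739.9, 2969.7, 4042 and 8564 CPM. Every other cell was lower for each of these 3 genes. Csf1r, the receptor for the macrophage growth factors CSF1 and IL-34, had 3870.4, 7289, 6619 and 159.8 CPM. Cell 46 was thus far below the other macrophages for Csf1r, and cell 12, outside the class, matched it at 160.0 CPM. Because these genes follow C1qb, their differences describe the class and are not independent evidence for it.

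Cell 22, just outside the threshold, held part of the program. It had 147.9 CPM of C1qb, 367.2 of Lyz2, 99.5 of C1qc, 98.5 of Ctss and 64.8 of Ms4a7, but 0.171 CPM of C1qa, 0.342 of Laptm5 and 0 of Tyrobp. It also carried F13a1 at 1472 CPM, Arg1 at 614 and Lsp1 at 526. Leaving cell 22 out of the other cells left the number of genes higher in all 4 macrophages than in every other cell at 111. This alternative, added after seeing the data, can only loosen the condition on the highest other cell. With cell 22 inside the class the number was 5.

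Over all 16384 genes at 1 CPM or more in at least 1 cell, with C1qb left out, 1313 (8.01%) were higher in the macrophages: their mean log2(CPM + 1) exceeded that of the other cells by at least 2, and they reached 1 CPM in at least 75% of the macrophages. By the mirrored rule 531 genes (3.24%) were lower. A stricter count asked that the lowest macrophage, at 10 CPM or more, exceed the highest other cell; 111 genes (0.677%) met it, 67 of them in the gene lists used below. The median difference of all genes tested was -0.19. Of the 516 list genes tested, 196 were higher. Genes that reached 1 CPM in macrophages alone were tested only because of those cells, and many list genes are macrophage markers that go with C1qb. The shares of list genes given beside the background thus describe the class and test nothing.

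**Figure D2:**
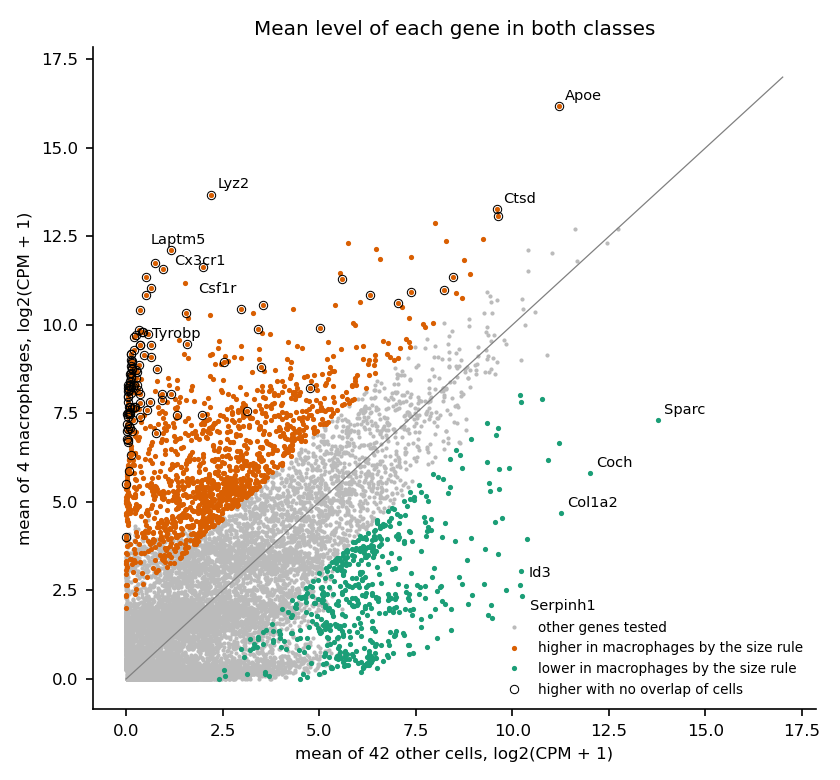
Mean log2(CPM + 1) of each gene tested in the 4 macrophages against the 42 other cells, with the line of equality. Orange genes (1313) are higher and green genes (531) lower by the size rule, and circled genes (111) are higher in each macrophage than in every other cell; Apoe is the highest gene of the macrophages.

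The largest positive differences outside Lyz2 and the C1q genes were led by Laptm5 and Cx3cr1. Laptm5, a lysosomal membrane protein of blood cells, had 2707, 4217, 4883 and 2472 CPM against at most 3.38 elsewhere (difference 10.99 on the log2 scale, SD 0.48 over the macrophages, n = 4). Cx3cr1, the fractalkine receptor, was even between the cells, with 2957, 3781, 2928 and 2722 CPM (SD 0.21). Fcrls, an Fc receptor-like gene of tissue macrophages, had 895, 2965, 2715 and 1634 CPM. The 4 cells lay above all others for each of these 3 genes. Adgre1, which encodes the F4/80 antigen, had 689.6, 1663, 824 and 541 CPM and a highest value of 1.04 CPM elsewhere. Slco2b1, an organic anion transporter, had 1458, 1191, 706 and 439.8 CPM. Cyth4, a guanine nucleotide exchange factor of blood cells, was highest in cell 43 with 2737 CPM and lay between 441 and 756 CPM in the other macrophages. Mpeg1, the pore-forming perforin-2 of phagocytes, had 1173, 523, 453 and 235 CPM.

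Of the core macrophage genes, 21 of 22 tested were higher and 16 did not overlap with the other cells (background 8.01% and 0.677%), with a median difference of 8.19. Some of them, such as Aif1 and C5ar1, stayed below 1 CPM in every other cell and were tested only through the macrophages. Aif1, which encodes the macrophage marker Iba1, had 218, 103, 176 and 434 CPM. C5ar1, the receptor for the complement fragment C5a, had 821, 479, 175 and 362 CPM. C3ar1, the receptor for C3a, had 1649, 1509.9, 663 and 2184 CPM. These 3 genes reached at most 1.13 CPM in any other cell. The core gene that was not higher was Fcgr1, the high-affinity IgG receptor: it had 172 CPM in cell 45 and 1.74 CPM or less in the other macrophages. Itgam, which encodes CD11b, was present in cells 43 and 45 at 329.8 and 292 CPM and stood at 3.68 and 0 in cells 44 and 46.

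General leukocyte genes were higher for 14 of 16, with 9 without overlap (background 8.01% and 0.677%). Tyrobp, the adaptor of TREM2, had 519, 304, 565 and 1223 CPM and Cd53, a leukocyte tetraspanin, 334, 176, 718 and 1038 CPM, against less than 1 CPM in every other cell. Ptprc, which encodes CD45, had 371, 529.8, 144 and 0 CPM. Cell 46 thus had no read of the common leukocyte antigen while it led the 4 for Tyrobp, Cd53 and the actin-binding Coro1a (1605 CPM). Rac2, a leukocyte GTPase, was even at 244, 253, 158 and 178 CPM.

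Of the transcription factors, 8 of 16 were higher (background 8.01%) and 10 varied by at least 3 log2 units among the macrophages, which 32.9% of all genes did. Spi1 had 159, 275, 486 and 304 CPM and Irf8, its partner in macrophage development, 494, 470.2, 431 and 681 CPM. Neither exceeded 0.451 CPM in another cell. Irf5 split the cells, with 532, 77.3, 500.03 and 45.8 CPM. Runx1 had 473, 323, 155 and 0.432 CPM and Ikzf1 225, 35.8, 21.6 and 1.94 CPM, both lowest in cell 46, and Runx1 also reached 1038 CPM outside the class. Cebpb, Klf2 and Klf4 overlapped widely with the other cells.

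Of the genes that describe resident tissue macrophages, 10 of 16 tested were higher, 3 without overlap (background 8.01% and 0.677%). Mrc1, the mannose receptor CD206, had 929, 1031, 736 and 160.5 CPM and at most 0.676 CPM elsewhere. Pf4, a platelet-type chemokine of resident macrophages, had 249, 161, 548 and 756 CPM. Sepp1 (current symbol Selenop), the selenium carrier, had 5072, 7927, 7439 and 3163 CPM, but cell 38 outside the class reached 3813 CPM, above cell 46. Other members were split between the cells. Stab1, a scavenger receptor, had 7.21, 555, 1646 and 166 CPM, so that cell 43 was close to the highest other cell (6.24 CPM). F13a1, the coagulation factor XIII A chain, was at 444 and 559.9 CPM in cells 43 and 44 and at 0.202 and 0.432 CPM in cells 45 and 46. Igf1, a growth factor, had 2.33, 281, 139 and 1678 CPM, and other cells reached 2364 CPM. Lyve1, Folr2 and Timd4, which mark a long-lived perivascular type, had 0 reads in all 4 macrophages, as did Vsig4, Fcna, Clec10a and Cd209d. Cd163 was present in cell 44 alone (45.3 CPM), and Ccl24 in cells 44 and 46 (40.1 and 102 CPM).

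Genes often used for microglia were higher for 6 of 11 tested, 4 of them without overlap, and 1 was lower (backgrounds 8.01%, 0.677% and 3.24%). P2ry12, the ADP receptor, had 549, 1822, 542 and 0.216 CPM: cells 43 to 45 carried it and cell 46 did not. Its neighbour P2ry13 had 238, 563, 377 and 180.4 CPM and Gpr34, a lysophosphatidylserine receptor, 845, 552, 1138 and 281 CPM. All 4 macrophages were above every other cell for both. Siglech was present in cells 43 and 44 (52.1 and 56.2 CPM) and at 0 in cells 45 and 46. Tmem119 had 440.1, 484, 2.63 and 114 CPM, but the other cells had a median of 104 and reached 7179 CPM, so that it did not separate the classes. Sall1, the microglial identity factor, and Slc2a5 had 0 reads in all 4. Sparc, which microglia also make, was the lower gene, with 261, 75.4, 121 and 262 CPM against a median of 13534.

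The third set, of monocyte-derived and MHC class II-high macrophages, was nearly empty. Only Cd74 of 5 tested was higher (background 8.01%). Ccr2, the monocyte chemokine receptor, stood at 0, 5.81, 0 and 3.24 CPM. H2-Aa, H2-Ab1, Plac8, Itgax, Cd209a, Ly6c2 and Chil3 had 0 reads in all 4 macrophages. Lsp1 had 442, 0, 45.9 and 0.216 CPM, with cell 22 at 526 CPM.

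**Figure D3:**
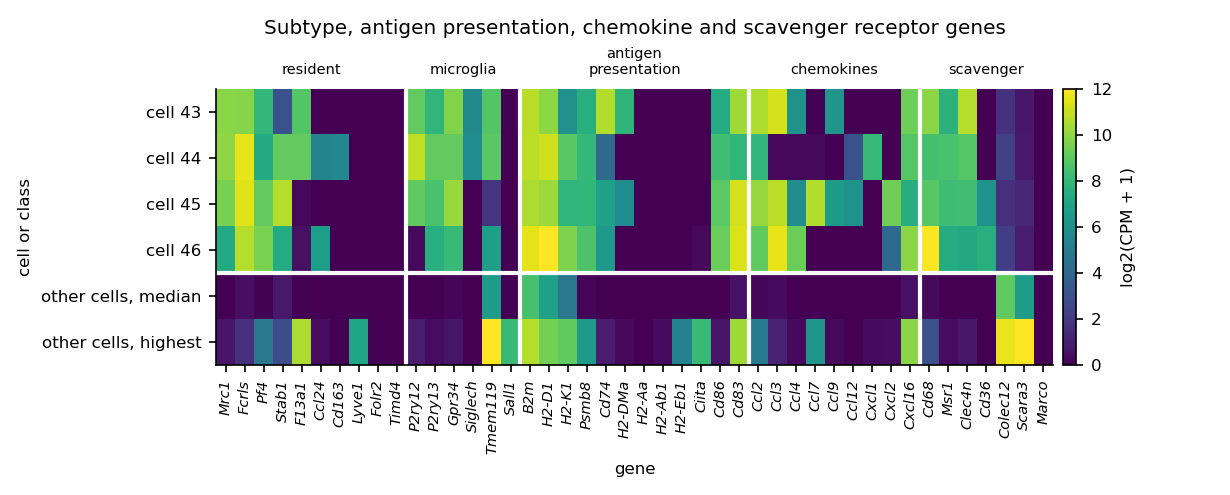
Level, log2(CPM + 1), of subtype, antigen presentation, chemokine and scavenger receptor genes in each macrophage (upper 4 rows) and, as the median and the highest value, in the 42 other cells (lower 2 rows). Mrc1, Fcrls, P2ry13 and Gpr34 are high in every macrophage; Lyve1, Folr2, Timd4, H2-Aa, H2-Ab1 and H2-Eb1 are at 0 in all 4, and Ccl3, Ccl7, P2ry12 and Stab1 differ between them.

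Lysosome genes were higher across a broad set: 38 of 81 tested were higher, none was lower, and 11 did not overlap with the other cells (backgrounds 8.01%, 3.24% and 0.677%). The summed level of these genes was 47363 to 69934 CPM in the macrophages, against 9299 to 32893 CPM with a median of 14471 in the other cells. No other cell thus reached the lowest macrophage in this sum. The median difference over the group was 1.88.

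Among the proteases, 9 of 15 were higher, 6 without overlap (background 8.01% and 0.677%). Ctsd, the aspartic cathepsin D, had 5275, 15248, 8845 and 13132 CPM and Ctsb, cathepsin B, 6088, 9383, 9577 and 10414 CPM. The other cells expressed both, with medians of 846 and 823 CPM and highest values of 2981 and 2071 CPM. Ctss, the cathepsin that trims the MHC class II invariant chain, had 2319, 1779, 1941 and 2389.9 CPM against a median of 0.374. Ctsc, which activates granule serine proteases, had 5164, 2365, 4547 and 1840.2 CPM, and Lgmn, the asparaginyl endopeptidase legumain, 2204, 3815, 2354 and 1978 CPM. All 4 macrophages were above every other cell for these genes and for Ctsa, the protective protein of lysosomal glycosidases. Ctsk, the collagenolytic cathepsin of osteoclasts, stood at 0.233, 0.387, 0.202 and 0.432 CPM against a median of 123. Ctsl did not separate the classes (-0.24 on the log2 scale), and neither did the cysteine protease inhibitor Cst3, which was even among the macrophages at 1724, 1632, 1607 and 1652 CPM.

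Of the hydrolases and their cofactors, 18 of 33 were higher and 16 varied among the 4 cells (background 8.01% and 32.9%). Psap, the precursor of the saposins that help degrade sphingolipids, had 2334, 3022, 2647 and 2481 CPM, and Grn, the progranulin gene, 1282, 2273, 3310.3 and 1509 CPM. Pla2g15, a lysosomal phospholipase, had 365, 694, 694 and 351 CPM. These 3 genes were above all other cells in each macrophage. Several enzymes were uneven between the macrophages. Creg1 had 356, 677, 293 and 2588 CPM and Man2b1, a mannosidase, 844, 1499, 2206 and 206 CPM, with cell 46 highest for the former and lowest for the latter. Neu1, a sialidase, was low in cell 44 (745, 6.20, 179 and 268 CPM), Tpp1, a tripeptidyl peptidase, in cell 43 (1.16, 250.1, 569.9 and 890.3 CPM), and Naglu was present in cells 44 and 46 alone (0.465, 551, 0.202 and 261 CPM). Smpd1, the acid sphingomyelinase, had at most 0.648 CPM in any macrophage, against a median of 64.4.

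The list of lysosomal membrane proteins separated the classes less: 11 of 33 were higher (7 without cell 46) and 1 did not overlap (background 8.01% and 0.677%). That gene was Slc11a1, the phagosomal metal transporter NRAMP1, with 394, 377, 81.01 and 699.6 CPM and at most 0.587 CPM elsewhere. Laptm5 and Cd68, also described here as lysosomal, were counted in other lists, and neither overlapped with the other cells. Lamp1 and Lamp2 differed by 1.59 and -0.00, below the size rule. Cd63, a tetraspanin of late endosomes, was present in all 46 cells and differed by 0.10. Of 16 subunits of the proton pump, 4 were higher (background 8.01%), among them Atp6v1b2 with 393, 268, 357 and 355 CPM. Tfeb, a transcription factor of lysosome genes, had 531, 48.04, 186 and 0 CPM and its relative Tfe3 244, 0, 298 and 55.5 CPM; cell 44 lacked Tfe3 and cell 46 lacked Tfeb.

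**Figure D4:**
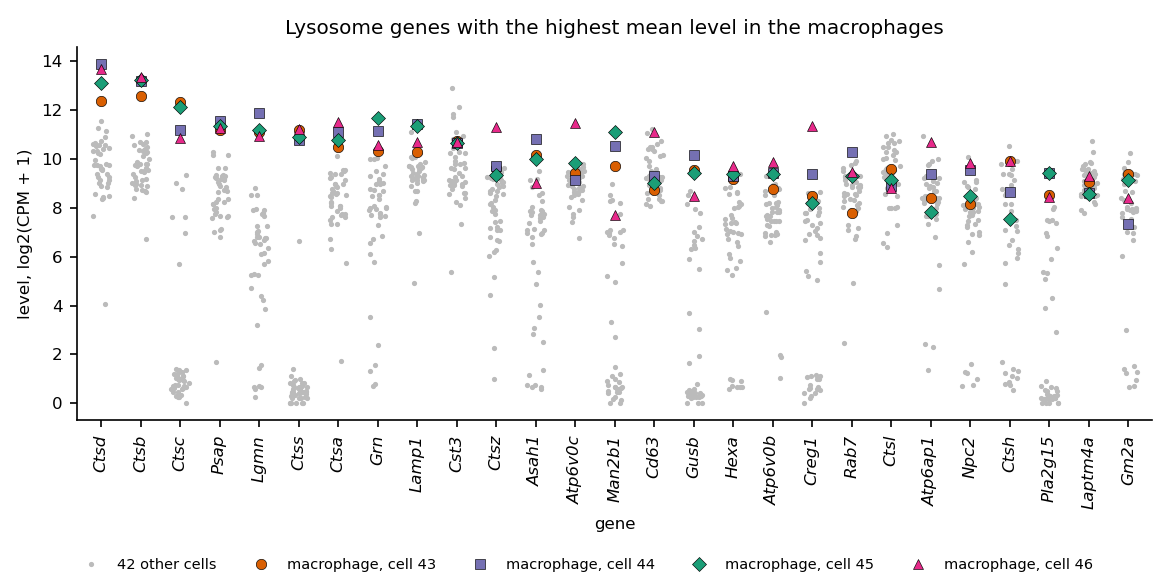
Level, log2(CPM + 1), of 27 lysosome genes among the 28 with the highest mean in the macrophages, for each macrophage (coloured symbols) and the 42 other cells (grey). Ctsd and Ctsb are present in 41 of the 42 other cells and higher in the macrophages, whereas Ctss is nearly limited to them, and Lamp1, Ctsl and Laptm4a overlap.

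Antigen presentation was split between its pathways. For MHC class I, 5 of 18 genes tested were higher (background 8.01%). B2m, the invariant light chain, had 1711, 1764, 1466 and 2924 CPM, of which the value of cell 45 was below the highest other cell (1597 CPM). H2-D1, a heavy chain, had 1007, 2248, 1201 and 4260.2 CPM and lay above every other cell. H2-K1, the other classical heavy chain, had 65.9, 493, 239.8 and 822 CPM, of which the value of cell 46 alone was above the highest other cell (540.1 CPM). Psmb8, an immunoproteasome subunit, had 189.7, 251.1, 247 and 399 CPM. Tap1, one chain of the peptide transporter, was at 0, 61.02, 3.03 and 49.03 CPM, and Tap2, the other, was above 1 CPM in cell 45 alone (235 CPM). Class I genes are near copies of each other, and the split of reads between them is uncertain.

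In the list of class II and co-stimulatory genes, 7 of 13 tested were higher (background 8.01%), yet the chains that form the class II molecule were not among them. The 7 include the protease gene Ctss and the co-stimulatory genes Cd83 and Cd86, and Ctss and Cd86 are also counted in other lists. Without cell 44, 45 or 46 the count was 4, as the rule of 75% then asks for all 3 remaining cells. H2-Aa, H2-Ab1 and H2-Eb1 had 0 reads in all 4 macrophages, which allows up to the floor of 3 reads. Ciita, the activator of class II transcription, had 1 read, in cell 46. Cd74, the invariant chain that accompanies class II, was nevertheless above every other cell in each macrophage, with 1594, 16.5, 114 and 85.3 CPM. Cell 43 was thus more than an order of magnitude above the other 3. H2-DMa, a peptide exchange chain, was present in cells 43 and 45 (231 and 56.2 CPM). Co-stimulatory genes were present: Cd86 had 163, 318, 509.5 and 620.1 CPM and did not overlap with the other cells, and Cd83 had 1248, 240.4, 2379.5 and 2597 CPM, of which cells 45 and 46 were above the highest other cell (1265 CPM). Cd40 had 0 reads in all 4 and Cd80 was at 64.1 CPM in cell 44.

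Of 23 chemokine genes tested, 5 were higher (3 without cell 43, 45 or 46), 1 was lower and 10 varied. The backgrounds were 8.01%, 3.24% and 32.9%. Ccl2, which attracts monocytes, was higher in each macrophage than in every other cell, with 1464, 249, 1134 and 529 CPM and at most 29.2 elsewhere. Ccl3 had 2413, 0.194, 1813 and 3012 CPM and Ccl4 70.5, 0.194, 57.98 and 623 CPM; both are inflammatory chemokines, and cell 44 lacked both. Cxcl16, a transmembrane chemokine that also binds oxidised lipoprotein, had 659.5, 453, 179.6 and 973 CPM, and other cells reached 944 CPM. Ccl7, a further monocyte attractant, was at 1549 CPM in cell 45 and at most 0.194 CPM in the others. Cxcl2, a neutrophil attractant, was also highest in cell 45 (664 CPM) and stood at 15.98 CPM in cell 46. Ccl9 was present in cells 43 and 45 (76.6 and 92.9 CPM), Cxcl1 in cell 44 (265 CPM) and Ccl12 in cell 45 (70.9 CPM). The set of chemokines present thus differed between all 4 cells. Cxcl12, the stromal chemokine, was the lower gene, with at most 5.04 CPM in a macrophage against a median of 289.8. Ccl5, Ccl8, Ccl17, Cxcl9 and Cxcl13 had 0 reads in all 4.

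Of the chemokine and chemoattractant receptors, 5 of 13 tested were higher (background 8.01%), among them Cx3cr1, C5ar1, C3ar1 and Cxcr4. Cxcr4, the receptor for CXCL12, had 97.98, 15.3, 5.66 and 100.4 CPM. Ccr1 was present in cell 43 alone (600.4 CPM) and Cxcr3 in cell 45 alone (103 CPM). Cx3cl1, the ligand of Cx3cr1, was under 1 CPM in each macrophage and reached 1217 CPM in the other cells.

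Scavenger receptors divided into 7 of 18 higher and 2 lower (background 8.01% and 3.24%). Msr1, the class A receptor for modified lipoprotein, had 209, 373, 306 and 169 CPM and at most 0.322 CPM elsewhere. Cd68, the lysosomal macrosialin, had 954, 355, 472 and 3851 CPM, and Clec4n, which encodes dectin-2, 1625, 453, 320.2 and 152 CPM. Cell 46 was thus highest for Cd68 and lowest for Clec4n, and cell 43 highest for Clec4n. Cd36, a fatty acid and lipoprotein receptor, was present in cells 45 and 46 (70.7 and 188 CPM). Marco, Stab2 and Olr1 had 0 reads in all 4. Colec12 and Scara3, scavenger receptors of stromal cells, were the lower genes: Colec12 had at most 4.07 CPM in a macrophage against a median of 532, and Scara3 at most 1.41 against 98.1.

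Receptors and bridging molecules for dying cells were higher for 11 of 22 (background 8.01%). Trem2, a lipid and lipoprotein receptor, had 204, 195, 396 and 1219.9 CPM, and Cd300a, a phosphatidylserine receptor, 313, 464, 266 and 203 CPM, both above every other cell. Mertk and Axl, tyrosine kinases that bind GAS6, had 245, 199.7, 161 and 2.38 CPM and 955, 319.8, 196 and 160.5 CPM. Their ligand Gas6 was expressed by the macrophages themselves at 582, 60.2, 827 and 452 CPM. Cell 46 had little Mertk but carried Axl and Gas6, while Axl was also present in 25 of the other cells. Sirpa, the receptor for the CD47 signal, had 1421, 624, 1282 and 285 CPM. Havcr2, which encodes TIM-3, was present in cells 45 and 46 (117 and 342 CPM). Fc and complement receptors were higher for 8 of 10, 6 without overlap (background 8.01% and 0.677%). Fcgr3 had 570.4, 1779.7, 1309 and 571 CPM, Fcgr2b, the inhibitory receptor, 217, 586, 1071 and 246 CPM and Fcer1g, their signalling chain, 235, 425, 551 and 579.5 CPM. Fcgr4 had 0 reads in all 4.

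Sensors of microbes and danger signals were higher for 7 of 26 (background 8.01%), and 4 of the 26 were present in all 4 macrophages. Cd14, the lipopolysaccharide co-receptor, had 211, 249.9, 787 and 834 CPM and Casp1, the inflammasome protease, 213, 107, 93.5 and 61.6 CPM, above all other cells. Tlr2 had 4.19, 233, 324 and 46.4 CPM. Tlr4 was at 231 CPM in cell 45 and at 0 in the other 3, Nlrp3 at 173 CPM in cell 43 alone, and Tlr1 in cells 43 and 46 (289.7 and 216 CPM). Syk, the kinase downstream of Fc receptors and dectins, had 475, 363, 248 and 0 CPM. Among cytokine and activation genes 6 of 23 were higher (background 8.01%), and 3 without cell 44 or without cell 45. Tnf was even, with 513, 436, 733 and 335 CPM and at most 0.645 CPM elsewhere. Il1b had 26.1, 94.9, 341 and 0 CPM and Osm, the cytokine oncostatin M, 0.931, 0, 219.8 and 1475 CPM, so that cell 46 was highest for Osm and had no read of Il1b. Il6, Il10, Il1a and Retnla had 0 reads in all 4, and Nos2 and Gpnmb, which were present in other cells, also had none. Arg1 had a single read, in cell 46. Lgals3, which encodes galectin-3, was at 502 CPM in cell 46 and 0 in the others. Spp1, osteopontin, stood at 10.01, 22.5, 77.8 and 106 CPM, while other cells reached 119788 CPM.

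Iron and heme genes were higher for 9 of 14 (5 without cell 46) and lower for 2 (background 8.01% and 3.24%). Hmox1, heme oxygenase 1, had 438, 92.8, 0.202 and 2553 CPM and Slc40a1, the iron exporter ferroportin, 0.233, 1004, 1662 and 259 CPM. The cell with the most Hmox1 (46) and the cell without Slc40a1 (43) thus differed. Hfe, a regulator of iron uptake, had 627, 106, 250.9 and 566 CPM, and Blvrb, a biliverdin reductase, 75.6, 254, 199 and 466 CPM. Trf, transferrin, had 3461, 4897, 5505 and 2334 CPM, within the range of the other cells. Steap3 and Cp, a ferrireductase and ceruloplasmin, were lower.

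Lipid genes were higher for 10 of 22 (background 8.01%). Apoe, the apolipoprotein, was the most abundant gene of the macrophages, with 61104, 91484, 69937 and 78024 CPM. It varied little (SD 0.25 on the log2 scale, n = 4), and the highest other cell, cell 39, had 19560.2 CPM. Plin2, the coat protein of lipid droplets, had 1074, 364, 403 and 1584 CPM and Abca1, the cholesterol exporter, 508, 491, 798 and 33.5 CPM. Of the prostaglandin genes, Hpgds had 373, 238, 173 and 333 CPM and Ptgs1 169.7, 165, 126 and 486 CPM, whereas Ptgs2 had 0 reads. Leukotriene genes were uneven between the cells. Ltc4s had 9.77, 95.7, 129 and 35.6 CPM, Alox5 177, 0.194, 149 and 0 CPM and Alox5ap 0, 0, 39.8 and 147 CPM. Neither Alox5 nor Alox5ap was higher by the size rule. Fabp5 was present in cell 46 alone (462 CPM).

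Receptors for growth factors and cytokines were higher for 17 of 23 (11 without cell 44, 45 or 46), and 15 varied (background 8.01% and 32.9%). Il10rb had 350.5, 397, 600.0 and 478 CPM and Csf3r, the G-CSF receptor, 153, 274, 485 and 82.1 CPM, each above every other cell in all 4 macrophages. Il10ra had 620.0, 835, 709 and 13.8 CPM and Tgfbr1 445, 960.5, 497 and 3.89 CPM, both lowest in cell 46. Csf2ra, a chain of the GM-CSF receptor, ran the other way with 0, 1.94, 98.4 and 352 CPM. The ligands of Csf1r were made by other cells: Csf1 and Il34 were under 1 CPM in every macrophage and present in 12 and 16 of the other 42 cells, with highest values of 329 and 731 CPM. Ifngr1, the interferon-gamma receptor, had 750.3, 1056, 825 and 331 CPM, and Il1r1 had 0 reads in all 4.

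Complement genes beyond C1q were sparse: Cfb was present in cells 44 and 46 (148 and 69.1 CPM) and C2 in cell 44, while C3 had 0 reads. Immediate early genes were higher for 13 of 18 (background 8.01%) but overlapped with the other cells for every one. Fos had 5469, 2776, 2045 and 13152 CPM against up to 13727 elsewhere, and Atf3, a stress-induced factor, had 0.931, 0.969, 202 and 5869 CPM, with cell 46 highest. How far handling of the cells set these levels was not tested. No proliferation gene of 13 was higher by the size rule, yet 8 were present in at least 1 macrophage. Stmn1, a tubulin-binding protein, was present in all 4 (67.02, 118, 125 and 49.2 CPM), Aurkb, Cdk1 and Mcm2 in cell 44 (48.8, 56.6 and 67.6 CPM) and Top2a in cell 46 (79.3 CPM), while Mki67 had 1 read, in cell 43.

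Of the 111 genes above every other cell in all 4 macrophages, 44 were in none of the lists. Those named here were chosen after their values were seen. Efhd2, a calcium-binding actin regulator, was even between the cells, with 1255, 1301, 1598 and 1441 CPM. Gfm2, a mitochondrial ribosome recycling factor, had 839, 1056, 649.9 and 1347 CPM. Cd4, known from T cells, had 187, 395, 243 and 60.5 CPM and under 1 CPM in every other cell, while T and NK cell markers were at or near 0. Cybb, the catalytic subunit of the phagocyte NADPH oxidase, had 381, 394, 259.6 and 64.4 CPM. Nrros, which encodes a protein that presents latent TGF-beta in macrophages, had 734, 318, 323 and 351 CPM. Several members of the Ms4a cluster on chromosome 19 were in this group, among them Ms4a4a (267, 298, 359 and 814 CPM) and Ms4a6b (271, 323, 287 and 406 CPM).

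The 4 macrophages were not alike. Each had genes that set it apart from the other 3 by at least 3 log2 units: 542 high and 202 low in cell 43, 605 and 140 in cell 44, 693 and 116 in cell 45, and 343 and 246 in cell 46. These counts are out of 16384 genes tested, of which 32.9% varied among the 4 cells. Of 8 genes used in most cell types, 3 varied too. The differences named below thus describe single cells and not types of macrophage. The genes named here were chosen from the fixed lists or after their values were seen. Cell 46 lacked Ptprc, Syk, Itgam and P2ry12, was low for Csf1r, Mertk, Runx1 and Il10ra, and was highest for Lyz2, Cd68, Trem2, Hmox1 and Osm. Among the macrophages it alone carried Lgals3, Fabp5 and Gdf15, a stress-induced cytokine (607 CPM). Cell 44 lacked Ccl3, Ccl4 and the inhibitory receptor gene Lilrb4a (727, 0, 292 and 659 CPM). Among the 4, cell 45 alone carried Ccl7 and Tlr4 and had the most Stab1 and Slc40a1. Cell 43 lacked Slc40a1 and had the most Cd74 and Ccr1 and the heat shock gene Hspa1b (1581, 5.42, 13.7 and 4.54 CPM), whose near-identical copy Hspa1a makes the split of reads uncertain.

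**Figure D5:**
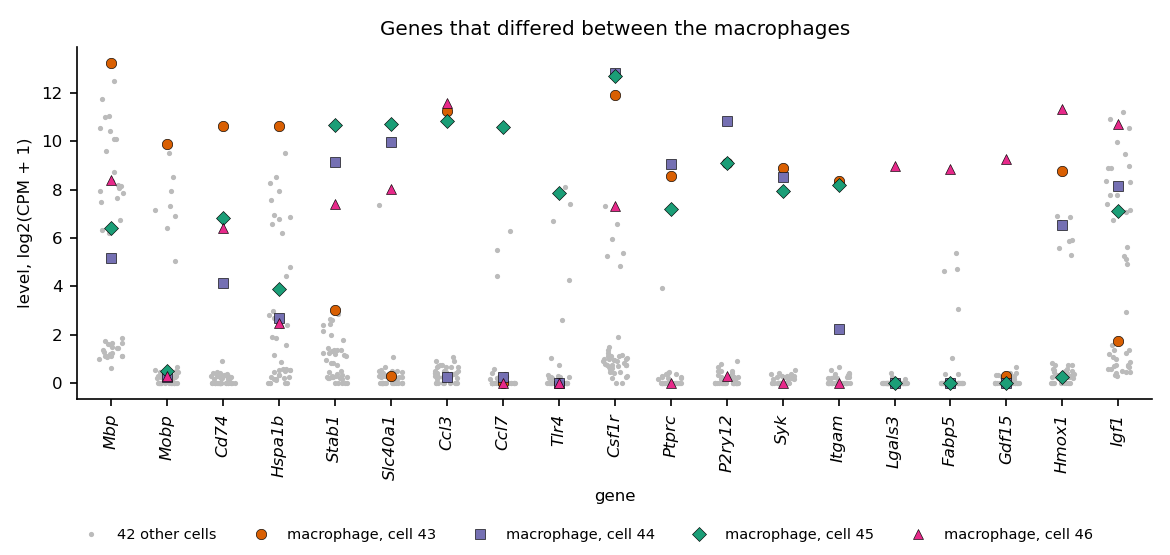
Level, log2(CPM + 1), of 19 genes that differed between the macrophages (coloured symbols), with the 42 other cells in grey; the genes were chosen after their values were seen. Mbp and Mobp are highest in cell 43, Csf1r, Ptprc, P2ry12 and Syk are lowest in cell 46, and Lgals3, Fabp5 and Gdf15 are present in cell 46 alone among the macrophages.

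Markers of other cell types were checked for each macrophage. Neutrophil and erythroid genes had 0 reads in all 4, and T and NK cell genes summed to at most 4.10 CPM. Of B cell genes Cd79b, a chain of the B cell receptor, was higher without overlap (162, 58.1, 82.8 and 141 CPM), and Blnk and Ighm were higher, while Cd79a and Ms4a1 had 0 reads. Of osteoclast genes Nfatc1 (265, 142, 139.8 and 3.24 CPM) and Tnfrsf11a, which encodes RANK (0, 187, 136 and 133 CPM), were higher (1 of these 2 without cell 44, 45 or 46), while Acp5, Calcr and Mmp9 had 0 reads. Cell 43 carried 6 of 7 tested genes of nerve and glia: Mbp, a myelin protein, had 9582, 35.3, 84.2 and 337 CPM and Gfap 174, 0.194, 0 and 0 CPM, and Nefl was at 97.3 CPM in cell 43. Mbp was present in 19 of the 42 other cells, with up to 5685 CPM. Sox10, the glial factor, had 0 reads in all 4. The part of these genes in the values of cell 43 was not tested; leaving cell 43 out gave 140 genes above every other cell, which by construction include the 111.

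Markers of stromal and bone cells were lower in the macrophages. Osteoblast genes were lower for 6 of 11, fibrocyte genes for 7 of 8, chondrocyte genes for 6 of 7 and fibroblast genes for 3 of 6 (background 3.24%). On medians of log2 values in place of means, osteoblast genes were lower for 2 and fibrocyte genes for 4. Bglap, the osteocalcin gene, for one, had a median of 3.505 CPM in the macrophages and 3.496 CPM in the other cells, and was present in 12 of the other cells, with up to 6313 CPM. Their summed level in cells 43 to 46 ran from 79.5 to 225.3 CPM for osteoblast, 127.0 to 479.4 for fibrocyte, 38.9 to 573.9 for chondrocyte and 11.7 to 27.9 for fibroblast genes, and cell 43 was the highest for all but the fibroblast genes. Coch, the cochlin of fibrocytes, had 141, 44.7, 33.9 and 42.98 CPM against a median of 9550.1. Col9a3, a cartilage collagen chain, had 216, 6.59, 5.45 and 8.64 CPM. In cell 43 these genes and the cartilage gene Lect1 (215 CPM) were thus above the other macrophages. The largest negative differences, in genes chosen by size alone, were led by Serpinh1, Cnn3 and Mxra8. Serpinh1, the collagen chaperone, had 5.82, 4.84, 2.83 and 3.46 CPM against a median of 1343 (difference -7.89), Id3, an inhibitor of differentiation factors, 4.19, 5.81, 5.05 and 6.26 CPM against 1355, and Cald1, a contractile protein, 3.72, 2.91, 3.43 and 3.02 CPM against 878. Fstl1, Ptn, Ppic, Kdelr3, Epdr1, Cpe and Fkbp10 were the rest of the 12 most lower genes, and these 12 stood at no more than 8.14 CPM in any macrophage.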

How the data were processed

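Single-cell libraries (SMART-Seq v4 cDNA, ThruPLEX) were read as the deposited CPM, reads per 1000000 reads, per the file headers, for 29871 genes. Per the submitters' processing notes, bcl2fastq 2, STAR 2.7.3a and the builds GRCm38 and mm10 were used; of the counting program, the annotation and the handling of strand nothing is given in the sources used here. All 100% of values were whole multiples of 1 read within 0.01 read, so reads were recovered, but with 1 labelled sample no count test could be run. Genes with near copies in the genome (MHC class I, H2-DMb1 and H2-DMb2, Csf2rb and Csf2rb2, Hspa1a and Hspa1b) and overlapping or antisense genes may share reads.

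Means of log2(CPM + 1), a scale that understates differences of low genes, were compared between the 4 macrophages and 42 other cells (python 3.11.15, pandas 2.3.3, numpy 2.4.6). A gene was called present in a cell at 10 CPM or more and at least 1% of its highest cell. Varied means a range of at least 3 log2 units with the highest cell at 50 CPM or more. Of 645 list genes, 640 matched by symbol, 3 by identifier and 2 not at all; 25 symbols in the file had become dates. Named genes are the 24 most higher and 12 most lower genes and, per list, up to 10 with the highest mean and 6 with the widest range, members of other cell types that were present, and absent subtype genes; those outside this rule were chosen after their values were seen, and a few genes of the rule are not reported here. Members and lists were chosen with earlier results of these data known. Scripts were tested on simulated data. Alternatives varied the pseudocount, mean, detection filter, scaling, depth, threshold and the cells left out.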

Additional observations from a re-analysis of the deposited data

Results flagged for a closer look

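For 41 of 224 named genes, 1 macrophage lay far from the other 3 on the log2(CPM + 1) scale, by Dixon's criterion for a gap among 4 values. Many of these genes were named for their wide range among the same 4 cells, so the count cannot be read against the share that chance flags, about 1 in 20 groups of 4. The 4 values are single cells and not replicates, and genes at 0 in 3 cells are flagged by a single read in the last: the flags describe these cells and test nothing. All values are CPM in the cell named.

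Cell 43 stood alone on the high side for Ccr1 at 600.4, Col9a3 at 216, Gfap at 174, Lect1 at 215, Mki67 at 0.233, Mobp at 929, Nefl at 97.3, Nlrp3 at 173 and Nrros at 734 CPM, and on the low side for Tnfrsf11a at 0 CPM. Cell 44 stood alone on the high side for Aurkb at 48.8, C2 at 229, Cd163 at 45.3, Cdk1 at 56.6, Cp at 143, Csf1 at 0.194, Cxcl1 at 265, Mcm2 at 67.6 and Pecam1 at 149 CPM, and on the low side for Ccl3 at 0.194 and Lilrb4a at 0 CPM. Cell 45 stood alone on the high side for Ccl7 at 1549, Cxcr3 at 103, Dct at 112, Tap2 at 235 and Tlr4 at 231 CPM. Cell 46 stood alone on the high side for Arg1 at 0.216, Ciita at 0.216, Fabp5 at 462, Gdf15 at 607, Lgals3 at 502, Smpd1 at 0.648 and Top2a at 79.3 CPM, and on the low side for Abca1 at 33.5, Csf1r at 159.8, Il10ra at 13.8, Mertk at 2.38, Nfatc1 at 3.24, P2ry12 at 0.216, Syk at 0 and Tgfbr1 at 3.89 CPM. Among the flags on the low side, those of cell 46 were the most numerous and included Csf1r, Mertk, Il10ra and Tgfbr1. On the high side, cell 43 held genes of glia (Mobp, Gfap), of neurons (Nefl) and of cartilage (Col9a3, Lect1). Arg1, Ciita, Csf1, Mki67 and Smpd1 were flagged at 1 to 3 reads.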

How the results depend on the processing

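The count of 1313 genes higher in the macrophages fell to 645 with a pseudocount of 10, which shrinks differences of low genes, to 824 when cell 22 joined the class (C1qb of at least 100 CPM) and to 759 when the class was set by Csf1r of at least 100 CPM; leaving out 1 macrophage gave 864 (without cell 45) to 1026, where 75% of 3 cells means all 3. The 531 lower genes became 323 with a pseudocount of 10 and 1627 without the filter on detection, and 538 to 611 with 1 macrophage left out. The 111 genes without overlap became 5 with cell 22 in the class and 3 when Csf1r set it, and 134 to 160 with 1 macrophage left out. With cell 22, or cells 22 and 42, left out of the other cells the number was 111 (added after seeing the data). Leaving cells out can only loosen the condition that no cells overlap. List genes that were higher numbered 154 to 171 and genes that varied 4245 to 4358 with 1 macrophage left out. Among the 224 named genes, none that was higher or lower by the size rule changed direction under 8 settings. Direction was not checked for named genes below the size rule. Of 1784 recomputed differences, 1439 moved by less than 1 SD and 345 by more. Rescaling to the listed genes moved the median of all genes by -0.00075. No paired analysis was possible because the labels give 1 group only. Depth limits a gene listed at 0 to 3 reads, and 4 cells of unnamed animals limit every statement to these cells.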

Other observations

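Genes of actin turnover and migration were higher in the macrophages for 9 of 16 tested (5 with a pseudocount of 10), 4 of them without overlap with the other cells. The backgrounds were 8.01% and 0.677%. Tmsb4x, an actin-sequestering thymosin, had 5616, 3432, 5580.3 and 7218 CPM in cells 43 to 46, of which the value of cell 44 was below the highest other cell (4504 CPM), whereas Tmsb10, its relative, stood at 6.05, 2.71, 7.48 and 17.7 CPM and overlapped with the other cells. Cotl1, an actin-binding partner of leukotriene synthesis, had 831, 754, 1155 and 1169.8 CPM, and Fermt3, the integrin activator kindlin-3 of blood cells, 192, 626, 527 and 101 CPM. Both were above every other cell in each macrophage. Capg, an actin-capping protein often found in macrophages, had at most 0.581 CPM in any of the 4 and a median of 50.1 CPM in the other cells. The genes without overlap that were in none of the lists also held Rgs1, a regulator of G protein signalling, which was highest in cell 46 (415, 144, 370.1 and 1724 CPM).

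The remaining lists hold few genes, and with 8.01% of all genes higher, 1 or 2 members are no result about a list. Of the lists of other cell types, 1 of 6 dendritic cell genes was higher (2 without cell 46), Bst2 (174, 68.8, 139 and 115 CPM), while Flt3, Clec9a and Ccr7 had 0 reads in all 4 macrophages. Monocyte genes were higher for 1 of 4, Nr4a1, which is also an immediate early gene (595, 74.00, 768 and 464 CPM). The only mast cell or basophil gene tested, Kit, stood at no more than 0.432 CPM in a macrophage. Endothelial and mural genes were higher for 1 of 8, Pecam1, which was at 149 CPM in cell 44 and at most 1.82 CPM in the other macrophages, and Cdh5, Kdr and Cldn5 had 0 reads; without cell 44, 45 or 46 none of the 8 was higher. No melanocyte gene of 5 and no sensory epithelium gene of 3 was higher, although Dct was at 112 CPM in cell 45 and Myo7a at 71.4 and 105 CPM in cells 43 and 45. Thyroid hormone genes were higher for 2 of 12, the transporters Slc7a8 (417, 171, 429 and 48.8 CPM) and Slc16a10 (4.19, 9.10, 155 and 0 CPM), and 1 was higher without cell 43, 44 or 45. In the same list 2 genes were lower, 9 were present in no macrophage, and the median difference was -1.52. Of 8 genes used in most cell types, Hprt was higher, with 0 reads in cell 43 and 471 CPM in cell 44, and none without cell 44, 45 or 46.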
